A study of Mus musculus with 8 samples.

Results

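Complex I of the respiratory chain takes electrons from NADH and pumps protons across the inner mitochondrial membrane. Most of its subunits come from nuclear genes, but the core of its membrane arm is encoded in the mitochondrial genome, and these are the mt-Nd genes. All 7 of them (mt-Nd1, mt-Nd2, mt-Nd3, mt-Nd4l, mt-Nd4, mt-Nd5 and mt-Nd6) were rows of the deposited count matrix and were taken as a group by that rule alone. They were 7 of the 20170 genes of the matrix and 7 of its 13 mitochondrially encoded genes (mt genes). Mitochondrial genes are transcribed as long RNAs from both strands of the circular genome and are then cut at the transfer RNAs that lie between them. Activated T cells are known to raise their mitochondrial mass and respiration.

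The data were single-cell RNA counts of T cells selected magnetically from mouse spleens. Mice were WT or Sdha fl/fl with CD4-Cre (SDHA-KO), so that Sdha, a subunit gene of complex II, is deleted in T cells of the latter. The study names mice of the B6 strain as the source of its WT T cells for single-cell RNA. In other experiments its WT mice were Sdha fl/fl without Cre, and the labels of these libraries say only WT. T cells were unstimulated or were stimulated for 48 hours with antibodies to CD3 (5 µg/mL) and CD28 (2.5 µg/mL), and dead cells were removed before loading. Each of the 4 groups (both genotypes, with and without stimulation) had 2 libraries, 8 in all, with 12846 cells. The labels do not say that the 2 libraries of a group came from separate animals, so p-values measure the spread between these libraries, which may be technical. CD4-Cre is driven by Cd4 regulatory sequence and acts from the CD4+CD8+ thymocyte stage onward, through which alpha-beta T cells pass and which most gamma-delta T cells do not. The CD4 or CD8 class and the subtype of each cell were those deposited by the authors. UMIs (unique molecules) were summed per library and class, which gave 16 sums of 325 to 1315 cells and 3640136 to 34087903 UMIs.

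The 7 genes are annotated on the mouse mitochondrial chromosome (mm10, GENCODE M21), each as an uninterrupted gene with no intron. mt-Nd1 lies at chrM:2751-3707, mt-Nd2 at chrM:3914-4951, mt-Nd3 at chrM:9459-9806 and mt-Nd4l at chrM:9877-10173. mt-Nd4 lies at chrM:10167-11544, mt-Nd5 at chrM:11742-13565 and mt-Nd6 at chrM:13552-14070. mt-Nd6 lies on the minus strand and the other 6 genes on the plus strand.

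At 2 places the annotation counts the same bases for a pair of members, and these are shown because 3′ reads there cannot be given to 1 gene by position alone. The last bases of mt-Nd4l are also the opening bases of mt-Nd4 on the same strand, an overlap of 7 bases that is printed in capitals.
mt-Nd4l, chrM:10144-10173, plus strand: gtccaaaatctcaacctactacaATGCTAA
mt-Nd4, chrM:10167-10196, plus strand: ATGCTAAaaattattcttccctcactaatg
The 3′ ends of mt-Nd5 and mt-Nd6 run into each other on opposite strands, and the 14 bases in capitals belong to both.
mt-Nd5, chrM:13536-13565, plus strand: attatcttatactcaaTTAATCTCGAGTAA
mt-Nd6, chrM:13552-13581, minus strand: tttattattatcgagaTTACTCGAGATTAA
Whether the counting used strand is not given in the sources used here, so reads across these 14 bases could count for either gene. The library kit primes on runs of adenine. The messenger of ND6 is known from human cells to carry no poly(A) tail, unlike the others, and the longest run of A in mt-Nd6 was 3 bases, against 4 to 8 in the other 6 genes. How mt-Nd6 molecules were primed was not tested.

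Nuclear copies of mitochondrial sequence share reads with some members. Of all 50-base windows of mt-Nd3 and mt-Nd4l, 98.0% and 98.8% were also present in another annotated gene, for mt-Nd4 62.2%, for mt-Nd2 8.19% and for mt-Nd5 7.61%. No window of mt-Nd1 or mt-Nd6 was shared. The copies of mt-Nd3, mt-Nd4l and mt-Nd4 are the neighbouring pseudogenes Gm28438, Gm10222 and Gm28439 at chr1:24611535-24613119. None of these pseudogenes is a row of the matrix, and how reads that align to both places were counted is not given in the sources used here. The counts of mt-Nd3, mt-Nd4l and mt-Nd4 therefore carry this uncertainty.

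Levels are given as CPM, the UMIs of a gene per 1000000 UMIs of all genes in the same library and class. Sdha was lower in SDHA-KO than in WT libraries, from 92.5 and 91.8 to 45.8 and 46.7 CPM in unstimulated CD4+ cells. In stimulated cells it went from 80.1 and 77.4 to 28.9 and 28.6 in CD4+ and from 89.9 and 86.3 to 60.0 and 55.9 in CD8+ cells. The kit counts 3′ ends, and where the deleted part of Sdha lies relative to them is not given, so this is no check of the deletion itself. T cell markers (6 of 6) were detected in every sum, but other markers differed between genotypes. Cd4 was at 155 and 155 CPM in unstimulated WT and 550 and 631 in SDHA-KO cells of the CD4 class. A Cd8a or Cd8b1 UMI was found in 91.9% and 92.4% of stimulated WT and 57.7% and 62.4% of stimulated SDHA-KO cells of the CD8 class. There the summed markers of natural killer cells were at 77.1 and 75.6 CPM in WT and 100.0 and 135 in SDHA-KO. Summed markers of B cells ranged from 2.81 to 63.7 CPM in 15 sums and were at 251 in the stimulated CD8+ sum of SDHA-KO replicate 1, against 11.5 in replicate 2. Those of myeloid cells ranged from 0.741 to 6.79. Trdc, the constant gene of the delta T cell receptor, had a UMI in 59.1% and 56.1% of stimulated SDHA-KO cells of the CD8 class, against 3.67% and 4.92% in WT. In unstimulated CD8+ cells these shares were 19.7% and 15.2% in SDHA-KO and 3.90% and 3.41% in WT, and in CD4+ cells they stayed between 1.98% and 10.1%. The part of these markers in the results was not tested. Of 12823 distinct barcodes, 23 occurred in more than 1 library.

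Cells with much mitochondrial RNA were unevenly spread over the groups. The authors' percent.mt, the share of a cell's UMIs from mt genes, was 10 or more in 60.9% and 59.0% of stimulated WT CD4+ cells and in 13.1% and 9.97% of stimulated SDHA-KO CD4+ cells. In stimulated CD8+ cells it was so in 75.7% and 70.7% of WT and 35.0% and 35.9% of SDHA-KO cells, and among unstimulated cells in at most 0.179%. These cells were also shallower. In stimulated WT CD4+ cells the median was 10690 and 10633 UMIs at percent.mt of 10 or more and 59713.5 and 59710.5 below it. In a sum over a library, fewer such cells and less mt RNA per cell cannot be told apart. The stimulated results are also given within cells under 10. As the members are part of percent.mt, that choice itself can move their level, so those results describe the kept cells only.

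In unstimulated cells, most mt-Nd genes were lower in SDHA-KO than in WT, and mt-Nd6 was higher. In CD4+ cells 5 of the 7 members fell and 1 rose, against 0.575% of all 14264 genes tested that fell and 0.526% that rose. In CD8+ cells the counts were again 5 and 1, against 0.664% and 0.283% of 13095 genes. The median log2 difference of the 7 members was -0.61 in CD4+ and -0.46 in CD8+ cells, against 0.03 and 0 over all genes. mt-Nd1 passed the test in neither class. Fold changes are fitted log2 differences of SDHA-KO minus WT from edgeR's quasi-likelihood test over all genes with Benjamini-Hochberg adjustment, while levels are plain CPM.

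The proton-pumping subunits ND2, ND4 and ND5 are encoded by the 3 longest members. The CD4+ level of mt-Nd4 was 1851 and 1832 CPM in the WT libraries and 1051 and 1065 in the SDHA-KO libraries. The groups did not overlap, and the log2 difference was -0.82 ± 0.07 (SE, adjusted p = 0.000305). mt-Nd2 stood at 2762 and 2730.0 CPM in WT and 1843 and 1813 in SDHA-KO, a log2 difference of -0.61 ± 0.07 (SE, adjusted p = 0.00361). For mt-Nd5 the CD4+ levels were 487 and 456 CPM in WT and 326 and 334 in SDHA-KO (-0.54 ± 0.07 on the log2 scale). All 3 genes were thus lower in both SDHA-KO libraries than in either WT library. The same held in CD8+ cells, with 2057 and 2009 and then 1557 and 1367 CPM for mt-Nd4, and log2 differences of -0.61 ± 0.09 for mt-Nd4, -0.62 ± 0.09 for mt-Nd2 and -0.45 ± 0.07 for mt-Nd5.

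The genes of the small membrane subunits ND3 and ND4L moved the same way. mt-Nd3, whose product carries a loop near the quinone site, was at 1067 and 1046 CPM in WT and 702 and 619 in SDHA-KO in CD4+ cells, a log2 difference of -0.70 ± 0.08 (SE, adjusted p = 0.00351). mt-Nd4l, the shortest member, was at 290.3 and 277 CPM in WT and 172 and 189 in SDHA-KO (-0.67 ± 0.09, adjusted p = 0.00669). In CD8+ cells the differences were -0.46 ± 0.09 for mt-Nd3 and -0.52 ± 0.09 for mt-Nd4l. Both are among the members with nuclear copies. mt-Nd1, whose product joins the membrane arm to the arm that holds the electron carriers, gave 1635 and 1637 CPM in WT and 1489.5 and 1449 in SDHA-KO CD4+ cells. Its log2 differences of -0.18 ± 0.08 in CD4+ and -0.21 ± 0.09 in CD8+ cells did not pass (adjusted p = 0.306 and 0.314), although the libraries did not overlap.

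mt-Nd6, whose product lies beside ND1 and ND4L in the membrane arm, was the member that rose. CD4+ cells held 42.1 and 37.1 CPM in WT and 92.8 and 93.5 in SDHA-KO libraries. CD8+ cells held 30.2 and 33.7 in WT and 65.9 and 68.1 in SDHA-KO. In both classes each SDHA-KO library was above each WT library, by 2.35-fold in CD4+ and 2.10-fold in CD8+ cells between group means. The log2 differences were 1.21 ± 0.09 (SE, adjusted p = 8.55e-05) and 0.93 ± 0.15 (SE, adjusted p = 0.0151). Restricted to cells with clear Cd4 or Cd8 transcripts and no Trdc UMI, they were 1.26 and 1.05.

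These calls depended on the number of libraries to different degrees. In CD4+ cells the calls of mt-Nd4 and mt-Nd6 held when any 1 of the 8 libraries was left out. Those of mt-Nd2, mt-Nd3 and mt-Nd5 were lost without either unstimulated WT library, and mt-Nd4l also without unstimulated SDHA-KO replicate 1. In CD8+ cells none of the 6 calls held without any 1 of the 4 unstimulated libraries, while no direction turned. Without composition normalization 2 members were called lower in CD8+ cells in place of 5, as the median of all genes moved from 0 to 0.12 and the share of higher calls among all calls from 29.8% to 73.0%.

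**Figure D1:**
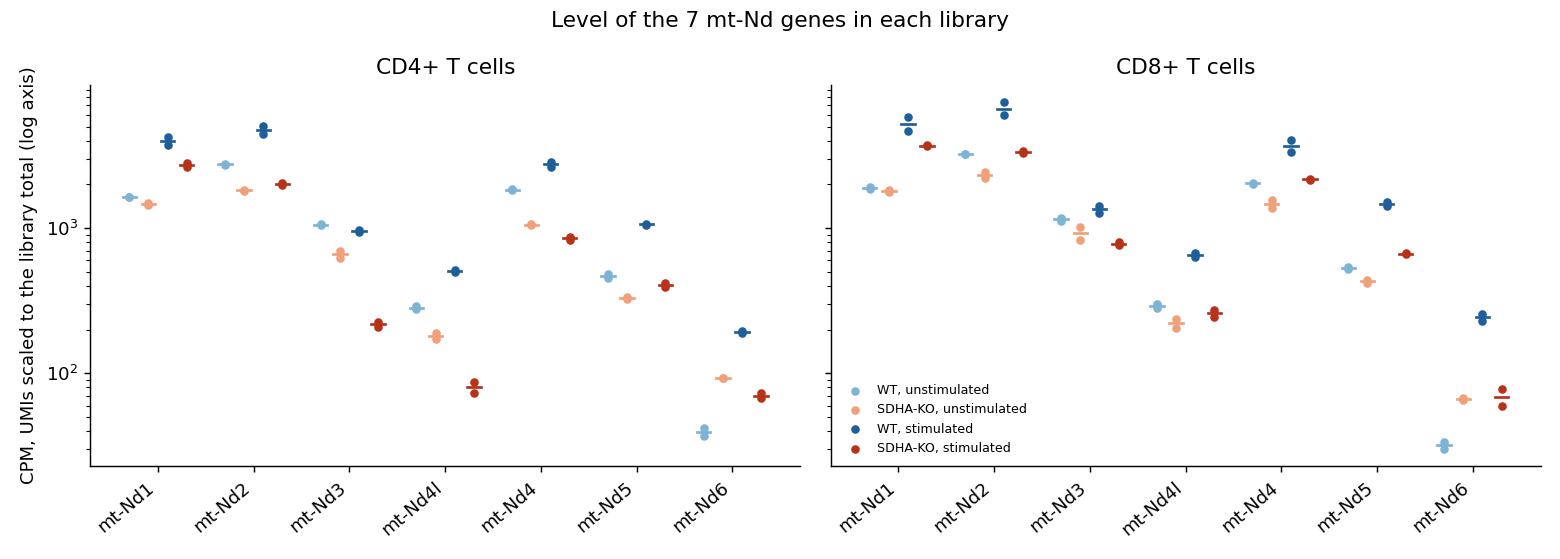
CPM (UMIs scaled to the library total, log axis) of each mt-Nd gene in each library, CD4+ cells on the left and CD8+ cells on the right. Points are libraries, 2 in each of 4 groups, and bars are group means. For mt-Nd6 both unstimulated SDHA-KO libraries lie above both unstimulated WT libraries, while for the other 6 genes they lie below them.

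After stimulation every mt-Nd gene was lower in SDHA-KO than in WT sums, in both classes. All 7 members fell in CD4+ cells, against 20.5% of all genes, and all 7 fell in CD8+ cells, against 23.5%. Their median log2 difference was -1.48 in CD4+ and -0.93 in CD8+ cells, with medians of -0.00 and -0.01 over all genes. Each of these 14 calls held when any 1 library was left out. The size differed widely between members, from -0.57 for mt-Nd1 to -2.68 for mt-Nd4l in CD4+ cells.

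Among the pumping subunits, mt-Nd2 was at 5051 and 4475 CPM in WT and 2045 and 1972 in SDHA-KO in CD4+ cells (log2 difference -1.27 ± 0.07, adjusted p = 5.77e-07). mt-Nd4 was at 2865 and 2645 CPM in WT and 869.7 and 835 in SDHA-KO (-1.71 ± 0.07, adjusted p = 4.32e-08). mt-Nd5 was at 1067 and 1054 CPM in WT and 422 and 393 in SDHA-KO (-1.40 ± 0.07, adjusted p = 1.71e-07). None of the groups overlapped. In CD8+ cells the log2 differences were smaller, -0.93 ± 0.09 for mt-Nd2, -0.71 ± 0.09 for mt-Nd4 and -1.07 ± 0.06 for mt-Nd5.

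The genes of the small subunits ND3 and ND4L, both among the members with nuclear copies, had the most negative differences in CD4+ cells. mt-Nd4l was at 501 and 515 CPM in WT and 87.9 and 73.3 in SDHA-KO, 0.159 of the WT mean (log2 difference -2.68 ± 0.09, adjusted p = 2.31e-08). mt-Nd3 was at 977 and 942 CPM in WT and 227 and 208 in SDHA-KO (-2.16 ± 0.09, adjusted p = 4.32e-08). mt-Nd6 was at 197 and 189 CPM in WT and 73.4 and 67.5 in SDHA-KO, a log2 difference of -1.48 ± 0.08 (SE, adjusted p = 1.95e-07). In contrast to unstimulated cells, mt-Nd6 was now lower in each SDHA-KO library than in each WT library. In CD8+ cells mt-Nd6 was at 257 and 231 CPM in WT and 77.8 and 60.0 in SDHA-KO and was the member with the most negative difference there (-1.76 ± 0.10, adjusted p = 8.81e-07). mt-Nd3 and mt-Nd4l gave -0.72 ± 0.09 and -1.27 ± 0.08 in that class.

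mt-Nd1 was the least reduced member. It was at 4254 and 3715 CPM in WT and 2646 and 2809.8 in SDHA-KO in CD4+ cells (log2 difference -0.57 ± 0.08, adjusted p = 0.000198) and at 5839.8 and 4644.5 CPM in WT and 3656 and 3730.3 in SDHA-KO in CD8+ cells (-0.44 ± 0.09, adjusted p = 0.00145). On each side of a percent.mt of 10 its direction was the opposite, though mitochondrial content still differed between genotypes there, in CD8+ cells only under 10. In stimulated CD4+ cells the SDHA-KO mt total was 0.622 of WT under 10 and 0.785 at 10 or more. In CD8+ cells it was 0.830 under 10, without overlap, and 0.983 at 10 or more, with overlap. Median depth of CD4+ cells under 10 was 59713.5 and 59710.5 UMIs in WT and 26637.5 and 26960.5 in SDHA-KO. For CD8+ cells under 10 it was 64638 and 64273 in WT and 47146.5 and 45781.5 in SDHA-KO. In CD4+ cells with percent.mt under 10 mt-Nd1 was at 1881 and 1636 CPM in WT and 2128 and 2394 in SDHA-KO. At 10 or more it was at 11352 and 10429 in WT and 15309 and 16852 in SDHA-KO. So both SDHA-KO libraries lay above both WT libraries on either side of the limit, and below them in the sum. The same pattern held in CD8+ cells, with 1907 and 1724 in WT and 2334 and 2318 in SDHA-KO under 10. The fitted log2 difference under 10 was 0.17 in CD4+ (adjusted p = 0.118) and 0.27 in CD8+ cells (adjusted p = 0.00422).

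In cells with percent.mt under 10, the other 6 members remained lower in SDHA-KO CD4+ cells, all past the threshold, but by less. Their log2 differences were -0.44 for mt-Nd2, -1.40 for mt-Nd3, -1.93 for mt-Nd4l, -1.10 for mt-Nd4, -0.77 for mt-Nd5 and -0.52 for mt-Nd6. In CD8+ cells under 10 they ranged from -0.96 for mt-Nd6 to -0.18 for mt-Nd3, and 5 of these 6 passed (mt-Nd3 adjusted p = 0.114). The Trdc shares given above also moved with the CD8+ comparison. In CD8+ cells with a Cd8a or Cd8b1 UMI and neither a Trdc nor a Cd4 UMI, all 7 members were lower, from -0.77 for mt-Nd1 to -2.11 for mt-Nd4l. Each difference was larger than over the whole class. This choice kept 169 of 511 and 147 of 396 stimulated SDHA-KO cells, against 736 of 844 and 709 of 834 WT cells. It also changed mitochondrial content, with an SDHA-KO mt total at 0.327 of WT in place of 0.486. The part of Trdc alone was not tested.

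**Figure D2:**
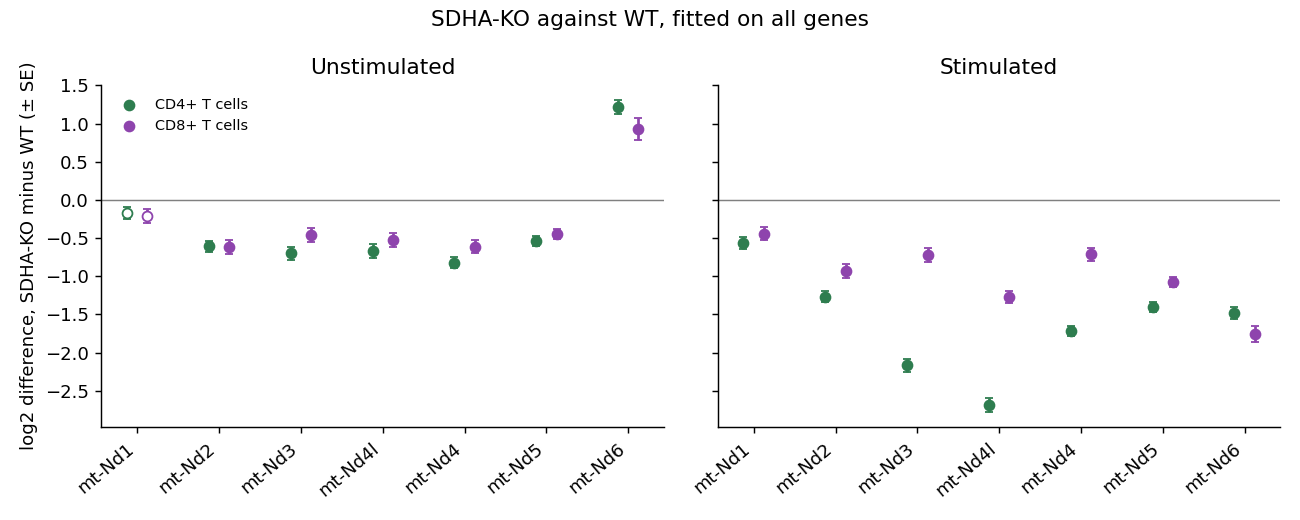
Fitted log2 difference of SDHA-KO minus WT for each mt-Nd gene in unstimulated (left) and stimulated (right) cells, in CD4+ and CD8+ classes. Filled points passed the adjusted threshold of 0.05, open points did not, and bars are standard errors. mt-Nd6 lies above 0 in unstimulated cells and all 7 genes lie below 0 in stimulated cells.

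Stimulation itself raised 6 members in WT cells of both classes, and mt-Nd3 was called lower. The share of all genes that rose was 36.2% in CD4+ and 35.5% in CD8+ cells, and the share that fell was 30.1% and 30.3%. mt-Nd6 rose most, from 42.1 and 37.1 to 197 and 189 CPM in CD4+ cells (log2 difference 2.07 ± 0.09, adjusted p = 3.20e-09) and by 2.44 ± 0.13 in CD8+ cells. mt-Nd1 rose from 1635 and 1637 to 4254 and 3715 (1.06 ± 0.08, adjusted p = 3.44e-07). mt-Nd5, mt-Nd4l, mt-Nd2 and mt-Nd4 followed with 0.95, 0.62, 0.57 and 0.36 in CD4+ cells. mt-Nd3 gave -0.36 ± 0.08 (SE, adjusted p = 0.00266) in CD4+ and -0.26 ± 0.09 (SE, adjusted p = 0.0261) in CD8+ cells. The CD8+ call of mt-Nd3 was lost without either unstimulated WT library or stimulated WT replicate 2 (adjusted p up to 0.199). Its CD4+ call was lost without composition normalization (-0.14, adjusted p = 0.131) and with nuclear UMIs as total (-0.09, adjusted p = 0.331).

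The rise in WT cells was not seen for most members in cells with less mitochondrial RNA. A limit of 10 in percent.mt, a total that holds the members, dropped 60.9% and 59.0% of stimulated WT CD4+ cells but no unstimulated WT cell. With it the stimulated over unstimulated ratio of the mt total in WT CD4+ cells went from 1.83 to 0.766. Falls under 10 are therefore partly set by the choice of cells and are no test of the rise. Among cells with percent.mt under 10, mt-Nd6 alone still rose, by 0.94 in CD4+ and 1.07 in CD8+ cells on the log2 scale. mt-Nd2, mt-Nd3, mt-Nd4l and mt-Nd4 fell there, by 0.53, 1.40, 0.45 and 0.50 in CD4+ cells. mt-Nd1 and mt-Nd5 gave 0.07 and 0.12, neither past the threshold (adjusted p = 0.457 and 0.131). When every cell was weighted equally in place of summing UMIs, all 7 members rose, from 0.76 for mt-Nd3 to 3.22 for mt-Nd6 in CD4+ cells. The direction of mt-Nd3 also turned in CD8+ cells without composition normalization (0.22), where the median log2 difference of all genes stood at 0.57 in place of 0.09. The share of higher calls among all calls was then 75.6% in place of 54.0%.

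In SDHA-KO cells stimulation lowered more members than it raised in the CD4 class, and the reverse held in the CD8 class. In CD4+ cells mt-Nd1 rose, 4 members fell and 2 did not pass, against 36.6% of all genes that rose and 33.2% that fell. mt-Nd3 fell from 702 and 619 to 227 and 208 CPM (log2 difference -1.83 ± 0.09, adjusted p = 8.38e-09). mt-Nd4l fell from 172 and 189 to 87.9 and 73.3 (-1.39 ± 0.09, adjusted p = 1.06e-07), and mt-Nd6 from 92.8 and 93.5 to 73.4 and 67.5 (-0.63 ± 0.08, adjusted p = 2.17e-05). mt-Nd4 gave -0.53, mt-Nd1 0.67, and mt-Nd2 and mt-Nd5 -0.09 and 0.08 without passing. In CD8+ cells mt-Nd1, mt-Nd2, mt-Nd4 and mt-Nd5 rose by 0.24 to 0.75 and mt-Nd3 fell (-0.52), against 37.2% and 30.9% of all genes. Under percent.mt of 10, no member rose in the CD8+ cells and 6 fell, and in cells of clear CD8 class with no Trdc UMI 1 member rose. With cells weighted equally all 7 rose in CD8+ cells, and in CD4+ cells mt-Nd4 (0.20) and mt-Nd6 (0.16) turned above 0. The 4 CD8+ calls of a rise became 2 when SDHA-KO replicate 2 was left out, of either the unstimulated or the stimulated group.

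The difference between the SDHA-KO effect in stimulated and in unstimulated cells was tested directly. It was below 0 and passed for all 7 members in CD4+ cells, against 10.5% of all genes, and for 3 in CD8+ cells, against 10.2%. mt-Nd6 had the most negative value, -2.69 ± 0.12 (SE, adjusted p = 1.24e-06) in CD4+ and -2.68 ± 0.18 (SE, adjusted p = 2.19e-05) in CD8+ cells, and it was higher in SDHA-KO before and lower after stimulation. mt-Nd4l gave -2.01 ± 0.13 and mt-Nd3 -1.47 ± 0.12 in CD4+ cells. The value of mt-Nd1 in CD4+ cells was -0.39 ± 0.11 (SE, adjusted p = 0.028), and that call was lost without 6 of the 8 libraries in turn. In CD8+ cells mt-Nd4l (-0.75) and mt-Nd5 (-0.63) also passed. Among cells with percent.mt under 10, 3 members were below 0 past the threshold in CD4+ cells, and in CD8+ cells 1 was below and 3 were above. Over all genes that fit called 1100 below and 851 above 0 in CD4+ cells, and 755 below and 642 above in CD8+ cells. In cells of clear CD8 class with no Trdc UMI all 7 were called below 0, without composition normalization 6, and without stimulated WT replicate 2 5. Without that normalization the median of all genes in CD8+ cells moved from -0.01 to -0.21 and the share of higher calls from 56.9% to 32.8%.

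CD8+ cells held more mt-Nd RNA than CD4+ cells of the same WT libraries. Unstimulated, 6 of 7 members were higher in the CD8 class, by 0.21 to 0.41 on the log2 scale, against 7.98% of all genes, and mt-Nd6 gave -0.13 ± 0.12 without passing. The call of mt-Nd4l held in 1 of 4 alternatives (down to 0.04, adjusted p = 0.695, without composition normalization) and was lost without either unstimulated WT library. That of mt-Nd4 was lost without composition normalization (0.14, adjusted p = 0.0524) and with nuclear UMIs as total (0.15, adjusted p = 0.0525). Stimulated, all 7 were higher, by 0.27 to 0.42, against 12.2%. Under percent.mt of 10 only 1 member was called higher after stimulation. The SDHA-KO effect in unstimulated cells was not called different between classes for any member by edgeR (2 members had an unadjusted p under 0.05, and no other tool was run), against 0.014% of all genes called higher and 0.0281% lower. In stimulated cells the effect was weaker in CD8+ than in CD4+ cells for 5 members, against 14.2% of all genes called in this direction. The differences were 1.45 ± 0.06 for mt-Nd3, 1.42 ± 0.07 for mt-Nd4l and 1.01 ± 0.07 for mt-Nd4. For mt-Nd6 it was stronger (-0.28 ± 0.08), against 11.1% of all genes. Sdha itself was less reduced in stimulated CD8+ than CD4+ cells, with log2 differences of -0.54 and -1.47 and a called class difference of 0.94. The part of this unequal Sdha loss in the class differences of the members was not tested. In cells of clear class with no Trdc UMI, 3 members were called weaker in CD8+ cells in place of 5, and mt-Nd2 turned from 0.35 to -0.095.

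The members did not keep fixed parts of the mitochondrial RNA. As a share of all UMIs of the 13 mt genes, the 7 members together made up 20.2% and 20.2% in unstimulated WT CD4+ libraries and 16.9% and 16.5% in SDHA-KO. In stimulated CD4+ cells the order was turned, with 19.7% and 19.3% in WT and 26.5% and 27.0% in SDHA-KO. CD8+ cells followed the same order. Unstimulated, the share was 21.7% and 22.1% in WT and 18.3% and 17.1% in SDHA-KO, and stimulated it was 20.5% and 20.4% in WT and 23.9% and 24.0% in SDHA-KO.

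Of the members, mt-Nd1 differed most upward in share between SDHA-KO and WT after stimulation. Its share of mt UMIs was 5.61% and 5.30% in stimulated WT and 11.0% and 11.9% in stimulated SDHA-KO CD4+ cells, a 2.10-fold difference of means. In CD8+ cells it was 5.68% and 5.40% in WT and 8.01% and 8.08% in SDHA-KO. The groups lay far apart in both classes. Tested with the mt total as the library size, the log2 differences were 1.07 ± 0.08 (SE, adjusted p = 2.42e-08) and 0.54 ± 0.12 (SE, adjusted p = 0.000369). mt-Nd2 (0.37) and mt-Nd5 (0.23) also took a larger share in CD4+ SDHA-KO cells, and mt-Nd3 (-0.53) and mt-Nd4l (-1.05) a smaller one. The call of mt-Nd5 was lost without replicate 1 of stimulated WT or of stimulated SDHA-KO (adjusted p up to 0.0818) and under percent.mt of 10 (0.10, adjusted p = 0.185). In CD8+ cells mt-Nd4l (-0.30) and mt-Nd6 (-0.78) took a smaller share, and these 3 CD8+ calls became 5 without stimulated WT replicate 1. That of mt-Nd4l (adjusted p = 0.0378) held without replicate 1 of stimulated WT or of stimulated SDHA-KO and was lost without any 1 of the 6 other libraries (adjusted p up to 0.310). On this scale nuclear genes move with the mt total, so 87.4% of all genes were called higher and 1.04% lower in CD4+ cells, while the CD8+ shares were 74.2% and 2.32%.

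In unstimulated cells the gene that stood out on this scale was mt-Nd6. Its share was 0.104% and 0.0937% in WT and 0.276% and 0.277% in SDHA-KO CD4+ libraries, and in CD8+ libraries 0.0710% and 0.0816% in WT and 0.161% and 0.169% in SDHA-KO. The log2 differences were 1.48 ± 0.09 (SE, adjusted p = 5.53e-06) and 1.10 ± 0.16 (SE, adjusted p = 0.000805). In CD4+ cells 1 member rose and 5 fell (mt-Nd4 most, -0.56), against 24% and 0.764% of all genes. In CD8+ cells mt-Nd6 was the only member called, against 0.741% of all genes called higher. No member was called there without unstimulated WT replicate 1, and 3 were without stimulated WT replicate 1 or 2, in cells with percent.mt under 10 or with no filter on low counts. The CD4+ count of 6 members fell to 1 without unstimulated WT replicate 2, to 2 without WT replicate 1 or SDHA-KO replicate 2 and to 4 without SDHA-KO replicate 1, all of them unstimulated.

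Stimulation of WT cells also redistributed the shares. mt-Nd6 rose from 0.104% and 0.0937% to 0.260% and 0.269% of mt UMIs in CD4+ cells, and mt-Nd3 fell from 2.65% and 2.64% to 1.29% and 1.34%. The log2 differences in CD4+ cells were 1.42 ± 0.09 for mt-Nd6, 0.41 ± 0.08 for mt-Nd1, 0.30 ± 0.08 for mt-Nd5, -0.29 ± 0.08 for mt-Nd4 and -1.01 ± 0.09 for mt-Nd3. Thus 3 members rose in share and 2 fell, against 19.8% and 53% of all genes. In CD8+ cells the same counts, 3 and 2, stood against 17.8% and 52.5%, with 1.76 for mt-Nd6 and -0.94 for mt-Nd3. These 5 CD8+ calls became 2 without either unstimulated WT or either stimulated SDHA-KO library, 3 without either unstimulated SDHA-KO library, and 2 in cells of clear CD8 class with no Trdc UMI.

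**Figure D3:**
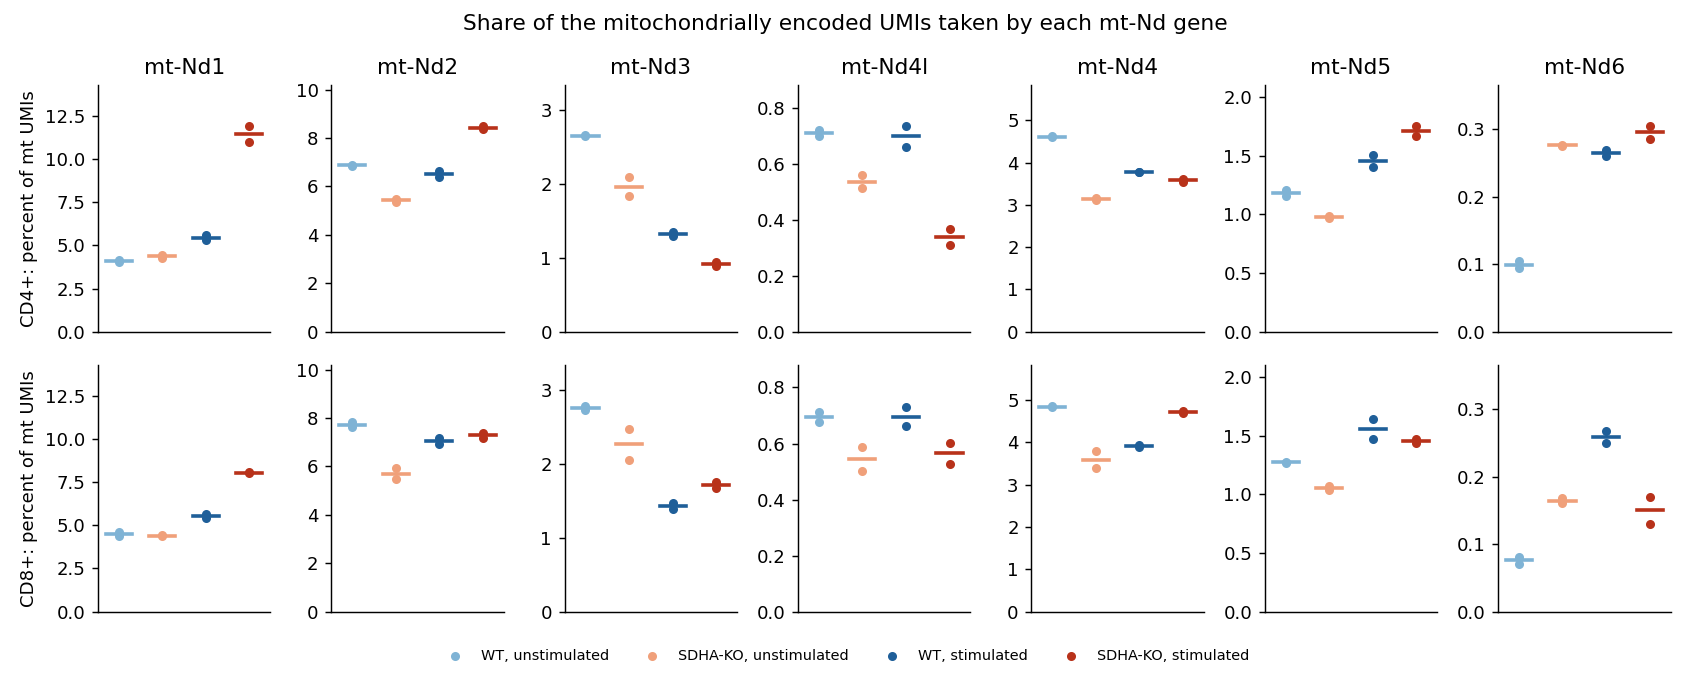
Share of the UMIs of all 13 mt genes taken by each mt-Nd gene (percent), CD4+ cells in the upper row and CD8+ cells in the lower row. Points are libraries and lines are means of 2 libraries per group. mt-Nd1 is highest in stimulated SDHA-KO libraries, and mt-Nd6 is lowest in unstimulated WT libraries.

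The shares were also read in cells grouped by their percent.mt, as a description, since the members are part of that total. In stimulated CD4+ cells mt-Nd1 took 5.16 to 6.06% of mt UMIs over the 4 bins (under 5, 5 to 10, 10 to 20, 20 to 40) in WT libraries and 8.94 to 12.4% in SDHA-KO libraries. Every SDHA-KO bin was above every WT bin. The SDHA-KO share was highest in the bins under 10 and lowest at 20 to 40, while the WT share moved less. In stimulated CD8+ cells the ranges were 5.26 to 5.83% in WT and 6.91 to 9.00% in SDHA-KO. mt-Nd4l ran the other way in CD4+ cells, 0.591 to 0.767% in WT bins and 0.295 to 0.427% in SDHA-KO bins. mt-Nd3 took 1.17 to 1.38% and 0.772 to 1.01% in CD4+ cells, but 1.22 to 1.56% and 1.62 to 1.91% in CD8+ cells, so the SDHA-KO bins were lower in 1 class and higher in the other. The CD8+ direction depended on the cells used. Over all bins the SDHA-KO share of mt-Nd3 was 1.19 of WT in the whole CD8 class. In cells of clear CD8 class with no Trdc UMI it was 0.915 of WT, without overlap.

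**Figure D4:**
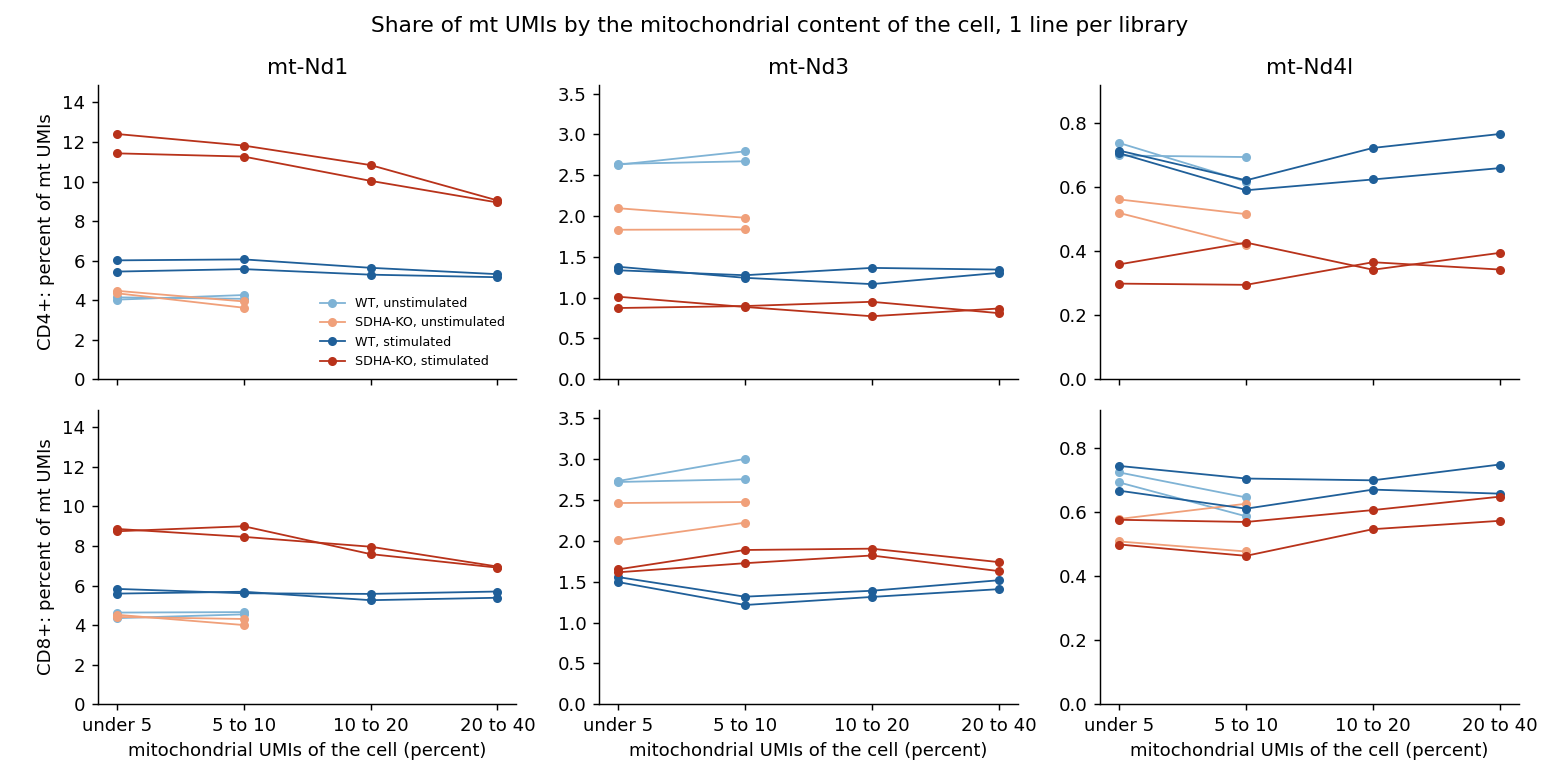
Share of mt UMIs (percent) taken by mt-Nd1, mt-Nd3 and mt-Nd4l in cells grouped by the percent of their UMIs that are mitochondrial, 1 line per library, CD4+ above and CD8+ below. Bins of a library with under 20 cells are not drawn. The lines of stimulated SDHA-KO libraries for mt-Nd1 lie above those of stimulated WT libraries in every bin.

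Across the authors' naive, effector memory (Tem) and regulatory (Treg) subtypes, mt-Nd6, mt-Nd2 and mt-Nd4 kept their unstimulated directions. Some other members overlapped between genotypes in the CD4+ subtype Tem1, and mt-Nd1 did in Treg (1542 and 1649 CPM in WT, 1640 and 1548 in SDHA-KO). In the 6 CD4+ subtypes with at least 50 cells in each of the 4 libraries, mt-Nd6 was higher in both SDHA-KO libraries than in both WT libraries in 6 of 6, by 1.36 to 4.52-fold. mt-Nd2 and mt-Nd4 were lower in 6 of 6, at 0.542 to 0.886 and 0.402 to 0.917 of the WT mean. The subtypes of a state came from the same 4 libraries, so such counts, here and in stimulated cells, are not independent results. The share of all genes that separate in this way was not counted. The subtype called Naive4 stood at 1 end, with mt-Nd6 at 24.2 and 15.5 CPM in WT and 80.7 and 99.2 in SDHA-KO, and mt-Nd4 at 0.402 of WT. Treg cells had 43.3 and 37.8 CPM of mt-Nd6 in WT and 170.4 and 155 in SDHA-KO. In both subtypes the groups were well separated. Tem1 stood at the other end, with 51.1 and 33.4 in WT and 62.4 and 52.4 in SDHA-KO, where the groups nearly met. In Tem1 the levels of mt-Nd3, mt-Nd4l and mt-Nd5 overlapped between genotypes, at 0.946, 0.900 and 0.896 of the WT mean, and so did the members' summed share of mt UMIs (19.3% on average in both). Of the 3 CD8+ subtypes, mt-Nd6 was higher without overlap in Naive1 and Naive2 and overlapped in the central memory (Tcm) subtype Tcm1.

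In stimulated cells the subtypes followed the split by mitochondrial content. Of WT CD4+ cells, percent.mt was 10 or more in 99.5% and 98.7% of Tcm2, 92.2% and 90.8% of Tcm4 and at most 4.29% of Tem1, Tem2 and Tem3. In SDHA-KO CD4+ cells it was 10 or more in 70.5% and 63.9% of Tcm2 and 45.9% and 41.3% of Tcm4. Median depths in WT were 8066.5 and 8830.5 UMIs per cell in Tcm2 and 72760.5 and 74728 in Tem2. Those in SDHA-KO were 5062.5 and 4307 in Tcm2 and 45316 and 43490.5 in Tem2. Genotypes were thus not matched for mitochondrial content or depth within a subtype, and the part of this was not tested. Within these 5 subtypes mt-Nd1 in CPM was higher in SDHA-KO in 4 of 5 and overlapped in 1, at 1.03 to 1.45 of WT, although it was lower in the class as a whole. mt-Nd3, mt-Nd4l, mt-Nd4 and mt-Nd5 were lower in 5 of 5. mt-Nd4l was the most reduced, at 0.233 to 0.350 of WT, and mt-Nd4 was at 0.434 to 0.570. mt-Nd6 was lower in 4 of 5 and higher in Tem1 (67.2 and 62.2 CPM in WT, 72.6 and 68.6 in SDHA-KO).

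As a share of mt UMIs, mt-Nd1 was higher in SDHA-KO in all 5 stimulated CD4+ subtypes, by 1.85 to 2.29-fold, and mt-Nd2 too, by 1.17 to 1.51-fold. In stimulated CD8+ cells only Tcm4 and Tem2 had at least 50 cells in each library. There mt-Nd6 was lower in SDHA-KO in both, at 61.7 and 61.8 CPM in WT Tem2 and 29.6 and 24.8 in SDHA-KO Tem2, while median depths were 71873.5 and 70954.5 UMIs in WT and 70251 and 72402 in SDHA-KO. mt-Nd1 in CPM overlapped in both, and its share of mt UMIs was higher by 1.26 to 1.29-fold. mt-Nd3 in CPM overlapped between genotypes in both, at 0.973 to 1.18 of WT, and mt-Nd4 overlapped in 1 and was lower in 1, at 0.937 to 1.16 of WT. The difference between the classes within subtypes was not tested.

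**Figure D5:**
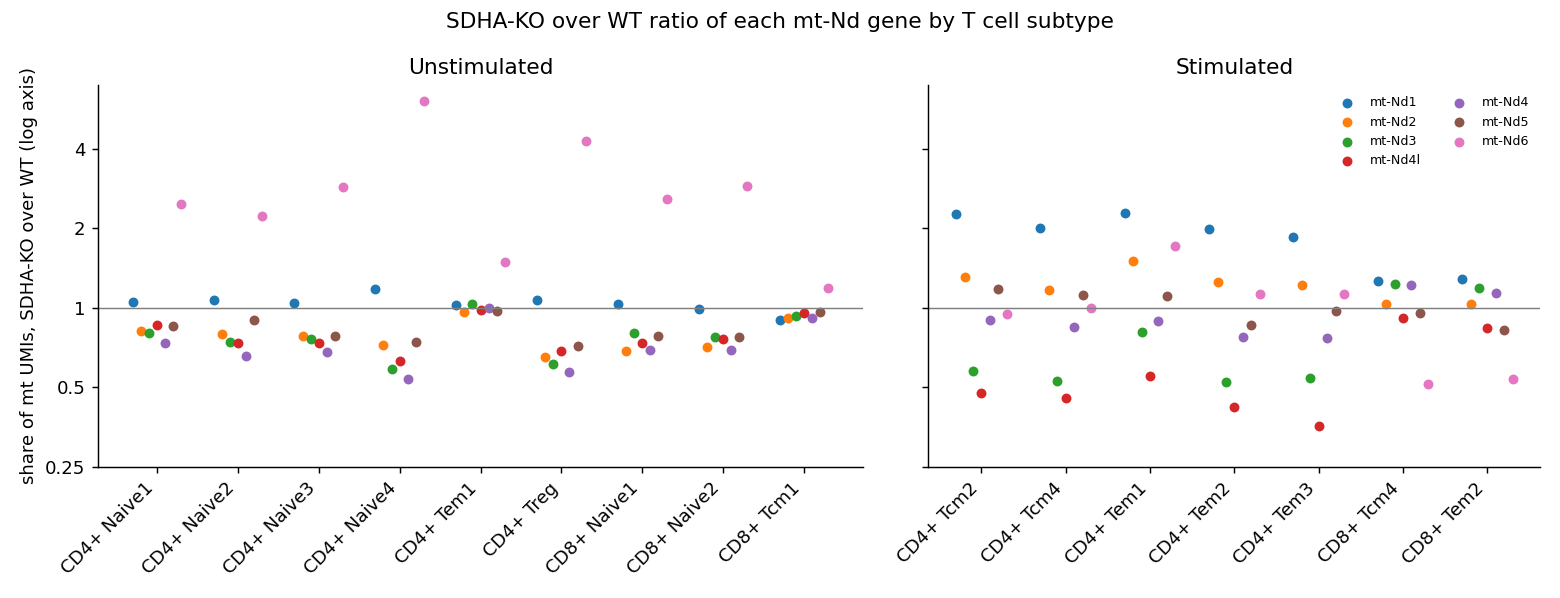
Ratio of SDHA-KO over WT (log axis) of the share of mt UMIs taken by each mt-Nd gene, by class and subtype, for subtypes with at least 50 cells in each of the 4 libraries. Unstimulated subtypes are on the left and stimulated on the right. mt-Nd6 lies above 1 in every unstimulated subtype, and mt-Nd1 lies above 1 in every stimulated one.

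Per cell, mt-Nd6 had the widest range, with UMIs in 23.4% to 96.9% of the cells of a library and class. In stimulated SDHA-KO CD4+ cells mt-Nd4l was found in fewer cells than mt-Nd6 before thinning, 64.9% and 61.0% against 66.0% and 63.2%. mt-Nd1, mt-Nd2 and mt-Nd4 were found in at least 96.6% of cells in each of the 16 sums, mt-Nd5 in at least 86.7%, mt-Nd3 in at least 77.7% and mt-Nd4l in at least 61.0%. A mt-Nd6 UMI was found in 25.0% and 24.4% of unstimulated WT CD4+ cells and 46.3% and 47.0% of SDHA-KO cells. Stimulated, it was found in 92.5% and 92.2% of WT and 66.0% and 63.2% of SDHA-KO cells. After each cell was thinned to 5000 UMIs and shallower cells (2 to 99 per library) were left out, the unstimulated shares were 18.9% and 16.9% in WT and 30.9% and 32.6% in SDHA-KO. The thinned stimulated shares were 64.6% and 64.7% in WT and 29.4% and 27.3%. In CD4+ cells the order of the 4 groups was the same as for CPM. In unstimulated CD8+ cells the thinned shares were 13.1% and 17.5% in WT and 26.0% and 29.1% in SDHA-KO. In stimulated CD8+ cells they were 72.3% and 68.5% in WT and 40.2% and 34.1% in SDHA-KO. In CPM, the stimulated and unstimulated SDHA-KO libraries of this class overlapped. The matrix holds no cell type that should lack mitochondrial genes, so no background share could be set beside these.

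The other 6 mitochondrially encoded genes, for complexes III to V, were compared with the members. In unstimulated CD4+ cells edgeR called 2 lower and none higher. mt-Cytb, the complex III gene, fell by 0.92 ± 0.08 on the log2 scale and mt-Co3 by 0.49 ± 0.07. mt-Co1 and mt-Co2, subunits of complex IV, gave 0.34 ± 0.07 and 0.14 ± 0.07 in the other direction without passing. In CD8+ cells edgeR called mt-Cytb lower (-0.58 ± 0.09) and the 5 others not. These counts rose in other fits. For the CD4 class DESeq2 called 4 lower and 1 higher, and edgeR in cells with percent.mt under 10 called 3 and 1. For the CD8 class these counts were 2 and 1 by DESeq2 and 3 and 2 under 10. In stimulated cells all 6 were lower in SDHA-KO in both classes, from -1.27 for mt-Co1 to -2.49 for mt-Cytb in CD4+ cells. Their median was -1.99, against -1.48 for the 7 members, in CD4+ cells and -1.13, against -0.93, in CD8+ cells. In cells with percent.mt under 10 all 6 were still called lower in both classes, with medians of -1.13 and -0.44.

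Nuclear genes of complex I were not called in unstimulated cells and were mostly higher in stimulated SDHA-KO cells. Of 36 nuclear subunit genes measured, edgeR called none in unstimulated CD4+ or CD8+ cells (1 and 2 had an unadjusted p under 0.05, and DESeq2 called none), with medians of -0.02 and -0.06. In stimulated cells 26 of 36 were higher and 1 lower in SDHA-KO CD4+ cells, and 23 higher and 1 lower in CD8+ cells. Among all genes 22.7% and 26.8% were called higher and 20.5% and 23.5% lower. The median of the list was 0.33 and 0.36. Ndufb10, a subunit of the membrane arm, had the largest rise (1.06 ± 0.09 in CD4+ and 0.97 ± 0.07 in CD8+ cells), and Ndufv3, of the NADH-binding module, was the gene that fell (-1.11 ± 0.10 and -1.05 ± 0.09). This count too moved when cells were limited by percent.mt. Under percent.mt of 10, 9 were higher and 6 lower in CD4+ cells, and the CD8+ counts were 7 and 6, with medians of 0.04 and 0.03. Calls over all genes also fell there. In CD4+ cells they went from 3235 higher and 2925 lower to 2198 and 2294. In CD8+ cells they went from 3512 and 3083 to 2314 and 2145.

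Factors that build complex I or act on mitochondrial RNA were few among the calls in unstimulated cells. Of 15 assembly factors edgeR called none in either class (3 in CD4+ and 2 in CD8+ cells had an unadjusted p under 0.05, and DESeq2 called none). Of 33 factors of mitochondrial transcription and RNA, Rexo2, an oligoribonuclease of mitochondria, was the 1 called in CD4+ cells (0.44 ± 0.09, adjusted p = 0.0495), and none was called in CD8+ cells (3 had an unadjusted p under 0.05, and DESeq2 called none). In stimulated cells 7 assembly factors were higher and 1 lower in SDHA-KO CD4+ cells, and 8 higher and 1 lower in CD8+ cells, to be read against the same shares of all genes. Under percent.mt of 10 the CD4+ counts were 3 and 2, and 4 factors were higher and 0 lower in the CD8 class. These stand beside the calls over all genes under 10 given above. DESeq2 gave 6 higher and 0 lower in each class. The largest rises were Ndufaf3 (0.89 ± 0.10) and Ndufaf4 (1.08 ± 0.08), and the falls called by edgeR and not by DESeq2 were Ecsit (-0.35 ± 0.09) and Timmdc1 (-0.30 ± 0.08). Of the RNA factors 7 were higher and 2 lower in CD4+ cells, a share of higher calls near the 22.7% of all genes. In CD8+ cells 18 were higher and 0 lower. In the CD4 class DESeq2 gave 3 higher and 0 lower, and cells under 10 gave 3 and 4. The CD8+ counts were 12 and 0 by DESeq2 and 14 and 0 under 10. Tefm, an elongation factor of the mitochondrial RNA polymerase, had the largest rise in both classes (0.99 ± 0.15 and 1.24 ± 0.18), and Mterf1b (-0.58 ± 0.21), of the termination factor family, had the largest fall in CD4+ cells, a call that DESeq2 did not give.

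With stimulation of WT cells, 26 of 36 nuclear subunit genes rose and 5 fell in CD4+ cells, and 17 rose and 8 fell in CD8+ cells. As given above, 36.2% of all genes rose and 30.1% fell in CD4+ cells, with 35.5% and 30.3% in CD8+ cells. Ndufab1, the mitochondrial acyl carrier protein, rose most (1.67 ± 0.09 in CD4+ cells), and Ndufa3 fell most (-0.96 ± 0.10). In SDHA-KO CD4+ cells 30 rose and 4 fell, with a median of 0.85, where the members had a median of -0.53. Both medians were above 0 in SDHA-KO CD8+ cells (0.61 and 0.24) and in WT CD4+ cells (0.44 and 0.62). With cells weighted equally, 5 of the 7 members were above 0 in SDHA-KO CD4+ cells too, so the sign of their median there depended on that choice. Under percent.mt of 10 the medians in WT CD4+ cells were of opposite sign, 0.80 for the nuclear genes and -0.45 for the members. Of the RNA factors 18 rose and 7 fell in WT CD4+ cells, beside those shares of all genes. Mgme1, a mitochondrial exonuclease of DNA replication, rose most (1.74 ± 0.17), and Polg2, the accessory subunit of the mitochondrial DNA polymerase, fell most (-1.47 ± 0.15). Of the 15 assembly factors 6 rose and 4 fell, shares close to the 36.2% and 30.1% of all genes, with Ndufaf6 (1.54 ± 0.17) and Tmem186 (-0.96 ± 0.16) at the ends.

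The members themselves fell into different patterns over the 16 sums of the 8 libraries. As a description of log2 CPM, Pearson's r with the summed level of the 6 members other than mt-Nd6, a sum that holds each of them, was 0.994 for mt-Nd2, 0.987 for mt-Nd5, 0.947 for mt-Nd4, 0.855 for mt-Nd4l, 0.852 for mt-Nd1 and 0.584 for mt-Nd3. For mt-Nd6 it was 0.617. Among 5749 nuclear genes of at least 20 CPM on average, those most like this sum were Snhg12 (0.948), Elovl6 (0.912), 5430416N02Rik (0.907), Atg16l1 (0.904) and Gng2 (0.894). Those most like mt-Nd6 were Mapk8ip3 (0.969), Mga (0.959), Tbce (0.957), Akap9 (0.957) and Cep170 (0.948). The sums share libraries, depth and the 4 conditions, so these values say which genes rank alike over the conditions and no more.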

How the data were processed

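Single-cell RNA of T cells was measured in 8 libraries of 4 groups. The count matrix was deposited by the authors as 1 table of whole-number UMI counts per gene and cell, with cell annotation that gives the class, the subtype and percent.mt, the percent of a cell's UMIs from mitochondrial genes. Per the labels and the study's methods, reads were handled with bcl2fastq and Cell Ranger on mm10 (versions not given in the sources used here), cells above 6000 (unstimulated) or 8000 (stimulated) features and clusters without Cd3 transcripts were removed in Seurat, and the authors named classes from Cd4 and Cd8a and subtypes from marker genes. Doublet calling and free RNA correction are not given in the sources used here and were not done here.

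Counts were summed per library and class (Python 3.11.15, pandas 2.3.3). Sums were tested with edgeR 4.0.16 in R 4.3.3 (filterByExpr with a minimum count of 10 and total of 15, TMM, glmQLFit, glmQLFTest) over all 8 libraries as 4 groups, with Benjamini-Hochberg adjustment over all genes and a threshold of 0.05. Fits between classes held the library as a block, and fits of the share of mt UMIs used the summed 13 mt genes as library total without TMM. SE is the log2 difference divided by the square root of F. Alternatives were DESeq2 1.42.0, limma 3.58.1 with cells weighted equally (pseudocount 1), other totals, no filter, cells under percent.mt of 10, cells of clear class (a Cd4 UMI and no Cd8a or Cd8b1 UMI, or the reverse, and no Trdc UMI), and each library left out. The edgeR script was tested on simulated data. Sums held 3640136 to 34087903 UMIs. Between the 2 libraries of a group, the chi-square statistic over its degrees of freedom was 1.54 to 13.6, lowest in unstimulated WT, where counting error is thus a large part of the spread. No exact test of 2 against 2 libraries can go below p = 0.333.

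Gene positions, shared windows and sequences came from GENCODE M21 on mm10. Members and gene lists were chosen with earlier results of these data known. Named genes were all members, the called gene with the largest rise and fall of each list, and the 5 nuclear genes most like the members. Further genes of the 6 other mitochondrial ones were named after their values were seen.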

Additional observations from a re-analysis of the deposited data

Results flagged for a closer look

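Effects of SDHA-KO on mt-Nd genes differed between conditions or classes by a direct test of the difference. The SDHA-KO effect in stimulated minus that in unstimulated CD4+ cells was -0.39 for mt-Nd1, -0.66 for mt-Nd2, -1.47 for mt-Nd3, -2.01 for mt-Nd4l, -0.89 for mt-Nd4, -0.87 for mt-Nd5 and -2.69 for mt-Nd6 on the log2 scale. In CD8+ cells it passed for mt-Nd4l (-0.75), mt-Nd5 (-0.63) and mt-Nd6 (-2.68). For mt-Nd6 the effect in each class had opposite signs before and after stimulation.

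Between classes, the SDHA-KO effect in stimulated CD8+ minus that in stimulated CD4+ cells was 0.35 for mt-Nd2, 1.45 for mt-Nd3, 1.42 for mt-Nd4l, 1.01 for mt-Nd4 and 0.34 for mt-Nd5, and -0.28 for mt-Nd6. Trdc had a UMI in 59.1% and 56.1% of the stimulated SDHA-KO CD8-class cells. Its part in these differences was not tested on its own, since the fit in cells of clear class also drops cells by their Cd4 and Cd8 transcripts. Sdha was also less reduced in stimulated CD8+ cells (-0.54) than in CD4+ cells (-1.47), and the part of this was not tested.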

How the results depend on the processing

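Of the member results, DESeq2 and the replicate block each changed the direction or call of none of 70. In the block fit, as without it, 5 members were called lower in unstimulated SDHA-KO CD4+ cells. Over all genes, deviations of same-numbered libraries were nearly uncorrelated (r from -0.0459 to 0.0476 in CD4+ and -0.0777 to 0.0278 in CD8+ cells, 0 of 6 pairs over 0.1 in each). Counting error lowers such an r, so it cannot show whether same-numbered libraries share an animal. Summed B cell markers in CD4+ cells were higher in SDHA-KO replicate 1 than in replicate 2 in both states. They were at 63.7 against 6.70 CPM unstimulated and 34.2 against 12.5 stimulated. The cause of the changes listed next was not tested.

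In cells with percent.mt under 10, SDHA-KO minus WT in stimulated cells turned to 0.17 (CD4+) and 0.27 (CD8+) for mt-Nd1. Stimulation of WT CD4+ cells turned to -0.53 for mt-Nd2, -0.45 for mt-Nd4l and -0.50 for mt-Nd4, and of WT CD8+ cells to -0.34 for mt-Nd1, -0.88 for mt-Nd2, -0.68 for mt-Nd4l, -0.76 for mt-Nd4 and -0.14 for mt-Nd5. Stimulation of SDHA-KO CD8+ cells turned to -0.49 for mt-Nd2, -0.40 for mt-Nd4 and -0.25 for mt-Nd5. The SDHA-KO effect stimulated minus unstimulated turned to 0.35 (mt-Nd1) and 0.17 (mt-Nd2) in CD4+ and to 0.47 (mt-Nd1), 0.39 (mt-Nd2) and 0.36 (mt-Nd4) in CD8+ cells. With cells weighted equally, stimulation gave mt-Nd3 0.76 in WT CD4+ and 0.94 in WT CD8+ cells, mt-Nd2 0.74, mt-Nd4 0.20 and mt-Nd6 0.16 in SDHA-KO CD4+ cells, and mt-Nd3 0.79, mt-Nd4l 1.31 and mt-Nd6 0.90 in SDHA-KO CD8+ cells. Without composition normalization and with nuclear UMIs as total, stimulation gave mt-Nd3 0.22 and 0.31 in WT and mt-Nd4l 0.22 and 0.23 in SDHA-KO CD8+ cells. In cells of clear class, stimulation gave mt-Nd2 -0.18 and mt-Nd4 -0.37 in SDHA-KO CD8+ cells, and the class difference of mt-Nd2 was -0.095.

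Counts of members called moved as follows. In cells under 10, members called higher by stimulation fell from 6 to 1 in WT CD4+ and in WT CD8+ cells and from 4 to 0 in SDHA-KO CD8+ cells, members with a lower SDHA-KO effect after stimulation from 7 to 3 in CD4+ and from 3 to 1 in CD8+ cells, and members higher in CD8+ than CD4+ stimulated WT cells from 7 to 1. The share calls in unstimulated CD8+ cells went from 1 to 3, as they did with no filter. In cells of clear class, stimulation calls in SDHA-KO CD8+ cells went from 4 to 1, effect differences in CD8+ cells from 3 to 7, share calls for WT CD8+ stimulation from 5 to 2 and class differences from 5 to 3. Without composition normalization or with nuclear totals, 2 in place of 5 members were lower in unstimulated SDHA-KO CD8+ cells and 6 in place of 3 effect differences were called. With equal weights, 2 in place of 4 members fell on stimulation in SDHA-KO CD4+ cells and 7 in place of 4 rose in SDHA-KO CD8+ cells. Leaving out 1 library gave 1 to 5 members lower in unstimulated SDHA-KO CD4+ cells, 0 to 5 in CD8+ cells, 2 to 4 raised by stimulation in SDHA-KO CD8+ cells, 3 to 5 effect differences in CD8+ cells, and share calls of 1 to 6 (SDHA-KO, unstimulated CD4+), 0 to 3 (unstimulated CD8+), 2 to 5 (stimulated CD8+) and 2 to 6 (WT CD8+ stimulation).

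Over all genes, DESeq2 called 272 where edgeR called 157 in unstimulated CD4+ cells, 261 against 124 in unstimulated CD8+ cells and 4045 against 6160 in stimulated CD4+ cells. Cells of clear class gave 218 against 124 in unstimulated CD8+ cells. Under percent.mt of 10, 1951 in place of 3053 effect differences were called in CD4+ and 1397 in place of 3109 in CD8+ cells. When composition normalization was left out, the share of higher calls moved from 54.6% to 65.4% for stimulation of WT CD4+, 52.4% to 62.8% of SDHA-KO CD4+ and 54.6% to 66.2% of SDHA-KO CD8+ cells, with medians of all genes of 0.30, 0.26 and 0.39. With 2 libraries a group, small differences such as that of mt-Nd1 in unstimulated cells cannot be resolved.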
